A study of Mus musculus with 6 samples.

Results

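The genes described here are the 5 NF-κB subunits *Nfkb1*, *Nfkb2*, *Rel*, *Rela* and *Relb* together with 5 genes that restrain or modify them, *Nfkbia*, *Nfkbie*, *Nfkbiz*, *Bcl3* and *Tnfaip3*. They were taken by symbol from a table of 29097 genes, each symbol matched 1 row, and all 10 passed the filter on low values, a mean of 1 or more over the libraries in FPKM (fragments scaled to gene length and library size). Their RNA was measured by Smart-seq2, which copies and amplifies small amounts of mRNA without molecular identifiers, in CD45+CD11b+Ly6G+ neutrophils sorted from peripheral blood (PB). The mice were male C57BL/6 animals aged 8 weeks that either carried silk ligatures on their molars for 14 d (ligature-induced periodontitis, LIP, named Lig in the labels) or stayed without ligature for 14 d (Ctrl). There were 3 libraries per group, each made from the pooled neutrophils of 5 mice, so the spread between libraries is a spread between pools and not between single animals. The comparison asks how the RNA levels of these genes differed between LIP and Ctrl libraries, in which cell type markers differed as well.

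NF-κB is a family of dimeric transcription factors that induces cytokines, chemokines and survival genes in neutrophils exposed to microbial products or cytokines. In resting cells IκB proteins hold the dimers in the cytoplasm. Signalling through the IκB kinase complex leads to the breakdown of IκB, and the freed dimers induce, among other genes, several of their own inhibitors. *Nfkbia* and *Nfkbie* encode the cytoplasmic inhibitors IκBα and IκBε. *Nfkbiz* and *Bcl3* encode nuclear IκB proteins, which bind NF-κB on DNA and can raise or lower the transcription of single targets. *Tnfaip3* encodes A20, an enzyme that edits ubiquitin chains on upstream signalling proteins. These 5 genes are called inhibitors below for short, although of them only *Nfkbia* and *Nfkbie* encode cytoplasmic inhibitors of the dimers.

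The inhibitors rose in LIP, whereas of the subunits *Rela* alone passed the test, when libraries were scaled by TMM, a factor that takes most genes as unchanged. All 5 inhibitors were called higher (adjusted p under 0.05, edgeR's quasi-likelihood test), with a median log2 fold change of 1.39, and 1 of 5 subunits was, with a median of 0.09. Of the 10433 genes tested, 26.5% were called higher, 27.2% lower and 53.7% in either direction, with a median of -0.09. The CPM values (counts scaled to library size with TMM factors) of the 3 LIP and the 3 Ctrl libraries did not overlap for 6 of the 10 members, against 63.4% of all genes tested. Scaling on 21 mature neutrophil markers, which moved the median of all genes to -1.90, gave every rise named above a log2 fold change below 0, from -0.27 for *Nfkbia* to -1.39 for *Nfkbie*, and *Tnfaip3* (-0.46) then did not pass the test (adjusted p = 0.107, edgeR). Scaling on library totals, which moved that median to -0.42, left 4 inhibitors and *Rela* higher and called *Relb* lower. The share of higher genes among all calls was 49.3% with TMM, 31.6% with library totals and 0.619% with the neutrophil markers, so directions below hold for TMM unless a ratio within a library is given.

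Cell type markers differed between the groups as well. All 21 mature neutrophil markers were called higher in LIP, and their summed FPKM was 17708 to 21275 in Ctrl and 57077 to 62241 in LIP. All 15 B cell markers were lower, with a summed FPKM of 10829 to 11761 in Ctrl and 1801 to 1815 in LIP, and so were all 14 T cell markers tested (327 to 355 against 54.5 to 69.6) and all 8 erythroid markers tested, while haemoglobin genes took 14.58% to 15.02% of the counts in Ctrl and 1.55% to 1.61% in LIP. Of the monocyte markers 7 of 8 were higher (199 to 218 against 268 to 287) and of the platelet markers 7 of 7 (763 to 1009 against 1625 to 1892). Of the eosinophil and basophil markers 2 of 5 were higher (30.2 to 32.2 against 37.6 to 58.0). Of the NK cell markers 4 of 8 were called higher with TMM, but their summed FPKM overlapped between the groups (245 to 297 in Ctrl, 246 to 267 in LIP). None of these markers was without reads except *Klf1*, *Epor* and *Prg2*, each in at least 1 library. The NF-κB members are expressed in many of these cell types, in bulk libraries fewer cells of a type and less RNA per cell cannot be told apart, and the part of these shifts in the values below was not tested. Total counts were 52186555 to 57262379 per library.

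**Figure D1:**
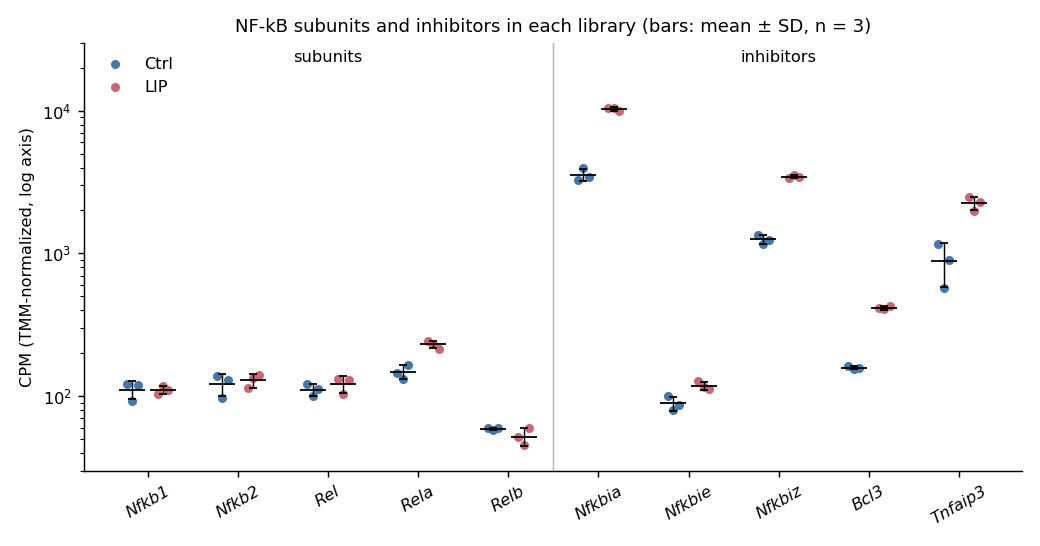
TMM-normalized CPM (log axis) of the 5 subunits and 5 inhibitors in each library, with the mean and SD of 3 libraries per group. The LIP libraries lie above the Ctrl libraries for *Rela* and for the 5 inhibitors, a direction that turns when libraries are scaled on mature neutrophil markers, and the groups overlap for the other subunits.

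*Nfkbia* (ENSMUSG00000021025, GRCm38 chromosome 12 from 55489410 to 55492647) was the most abundant member by far. Its CPM was 3285, 3958 and 3458 in Ctrl libraries 1 to 3 and 10485, 10528 and 9898 in LIP libraries 1 to 3. Each LIP library therefore held more than each Ctrl library, with a wide gap between the groups. The log2 fold change was 1.53 ± 0.0774 (SE, edgeR adjusted p = 2.24e-07), a rise of 2.89-fold. In FPKM, which is scaled on library totals without TMM factors, the rise was 2.34-fold. Its level went from 2282 ± 189 FPKM to 5331 ± 172 FPKM (mean ± SD of 3 libraries). Ranked by FPKM among 29044 gene names, it stood at place 24 or 25 in the Ctrl libraries and between places 12 and 14 in the LIP libraries. Reads of this gene alone made up 0.373% to 0.436% of all counts in Ctrl and 0.895% to 0.937% in LIP.

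The promoters are shown because *Nfkbia*, *Bcl3* and *Tnfaip3* rose by similar amounts, *Rel* did not pass the test and *Rela* rose less, and NF-κB is known to bind κB sites at several of these genes. RefSeq promoter sequences (GRCm38.p6) were found for 7 of the 10 members, not for *Nfkb1*, *Relb* and *Nfkbiz*. Each line runs 5′ to 3′ over 150 bases, 130 before the most upstream listed start and 20 from it, and capitals mark matches to the κB consensus on either strand, with overlapping matches joined.

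*Nfkbia*, chr12:55492628-55492777, minus strand: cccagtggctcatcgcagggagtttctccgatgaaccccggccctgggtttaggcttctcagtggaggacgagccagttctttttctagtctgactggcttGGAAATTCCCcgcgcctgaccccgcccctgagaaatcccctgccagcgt

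*Bcl3*, chr7:19822736-19822885, minus strand: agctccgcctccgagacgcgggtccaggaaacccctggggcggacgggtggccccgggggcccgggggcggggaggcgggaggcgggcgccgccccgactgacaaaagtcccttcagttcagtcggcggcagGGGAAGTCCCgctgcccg

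*Tnfaip3*, chr10:19015391-19015540, minus strand: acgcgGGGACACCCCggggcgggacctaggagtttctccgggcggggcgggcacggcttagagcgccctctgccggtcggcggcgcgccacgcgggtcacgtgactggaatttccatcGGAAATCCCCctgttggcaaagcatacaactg

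*Rel*, chr11:23770950-23771099, minus strand: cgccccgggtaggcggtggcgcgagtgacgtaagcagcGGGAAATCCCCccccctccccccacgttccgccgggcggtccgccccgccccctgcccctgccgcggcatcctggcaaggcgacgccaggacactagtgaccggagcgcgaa

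*Rela*, chr19:5637411-5637560, plus strand: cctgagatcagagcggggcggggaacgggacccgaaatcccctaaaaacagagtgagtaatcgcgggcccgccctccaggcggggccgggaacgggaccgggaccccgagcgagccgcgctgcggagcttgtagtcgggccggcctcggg

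The *Nfkbia* promoter held 1 match, which began 29 bases before the start. *Tnfaip3* held 2 stretches, at 125 and 12 bases before the start, *Bcl3* held 1 just after the start, and *Rel* 1 at 92 bases before it, whereas the *Rela* window held none. *Nfkb2*, with 2 stretches, and *Nfkbie*, with 1 at 106 bases before the start, also held the consensus, so that 6 of the 7 members with a sequence did. A match was present in 8.46% of all 32851 promoter entries of 300 bases and in 10.03% of the 7265 tested genes with an entry. Among tested genes with a match 29.9% were called higher in LIP and 23.9% lower, and among those without a match 28.2% and 26.3%. Matches were thus present both at inhibitors that rose and at *Nfkb2* and *Rel*, which did not pass the test. A match is a run of letters and does not show that a factor bound there.

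*Nfkbiz* (ENSMUSG00000035356, chromosome 16 from 55811375 to 55838899), whose nuclear protein IκBζ acts as a cofactor for a subset of inflammatory genes, was the next most abundant member. Its CPM was 1340, 1168 and 1251 in Ctrl and 3379, 3547 and 3426 in LIP. The LIP libraries lay close together and clear of Ctrl, with a log2 fold change of 1.46 ± 0.0760 (SE, edgeR adjusted p = 2.52e-07). *Bcl3* (ENSMUSG00000053175, chromosome 7 from 19808462 to 19822770), which encodes a nuclear IκB protein that binds p50 and p52 dimers, had 163, 155 and 158 CPM in Ctrl and 415, 405 and 429 CPM in LIP. The groups lay far apart beside the spread within each, and its log2 fold change was 1.39 ± 0.0930 (SE, edgeR adjusted p = 1.07e-06). *Bcl3* overlaps the opposite-strand gene *Gm16174* (mean FPKM 8.54) over 2073 bases, and reads of the overlap may have been counted for either.

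*Tnfaip3* (ENSMUSG00000019850, chromosome 10 from 19000910 to 19015410) had the largest standard error of the members. The Ctrl libraries held 1164, 568 and 906 CPM and the LIP libraries 2481, 1986 and 2291 CPM. Ctrl library 2 was the lowest of all, and the groups did not overlap. The log2 fold change was 1.36 ± 0.208 (SE, edgeR adjusted p = 0.000322) and ran from 1.14 without Ctrl library 2 to 1.62 without Ctrl library 1, passing the test in every fit that left out a library.

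*Nfkbie* (ENSMUSG00000023947, chromosome 17 from 45555703 to 45563169) changed least among the inhibitors. It had 99.9, 79.4 and 87.1 CPM in Ctrl and 127, 117 and 112 CPM in LIP, which did not overlap but lay near each other. Its log2 fold change of 0.42 ± 0.125 (SE, edgeR adjusted p = 0.0170) was smaller than those of the other inhibitors. In FPKM, which is scaled on library totals without TMM factors, the groups overlapped. The levels were 30.1 ± 4.01 FPKM in Ctrl and 32.4 ± 1.87 FPKM in LIP (mean ± SD of 3 libraries). With library totals in place of TMM the log2 fold change was 0.09 (adjusted p = 0.549, edgeR). The call was also lost without Ctrl library 3 (adjusted p = 0.0592, edgeR) and without LIP library 1 (adjusted p = 0.0596, edgeR). It was lost as well with the filter raised to FPKM 5, at 0.25 (adjusted p = 0.107, edgeR), and in limma on log2(FPKM + 1) and log2(FPKM + 0.1), at 0.11 in both (adjusted p = 0.461 and 0.462).

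Among the subunits, *Rela* (ENSMUSG00000024927, chromosome 19 from 5637483 to 5648130), which encodes the transactivating subunit p65, was the most abundant. Its CPM was 144, 133 and 166 in Ctrl and 243, 233 and 215 in LIP, with no overlap. The log2 fold change was 0.64 ± 0.116 (SE, edgeR adjusted p = 0.000978), and it stayed between 0.59 and 0.73 when each library was left out in turn. It also passed with library totals, at 0.32 (adjusted p = 0.0358, edgeR), and in limma on log2(FPKM + 1), at 0.33 on that scale (adjusted p = 0.0266).

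The other subunits did not pass the test. *Nfkb1* (ENSMUSG00000028163, chromosome 3 from 135584655 to 135691546), the source of p50 and its precursor p105, had 121, 92.4 and 119 CPM in Ctrl and 103, 118 and 111 CPM in LIP. The LIP values fell inside the Ctrl range, and the log2 fold change was 0.00 with a 95% interval from -0.30 to 0.29. *Nfkb2* (ENSMUSG00000025225, chromosome 19 from 46304320 to 46312385), the source of p52 and p100 in the non-canonical pathway, had 138, 97.0 and 129 CPM against 113, 133 and 141 CPM. Its interval ran from -0.25 to 0.42. It overlaps the opposite-strand gene *4833438C02Rik* (mean FPKM 10.3) over 1292 bases, and *Nfkb1* overlaps the low gene *Gm43430* on the same strand.

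*Rel* (ENSMUSG00000020275, chromosome 11 from 23736847 to 23770970), which encodes c-Rel, a subunit best known from lymphocytes, had 121, 99.5 and 112 CPM in Ctrl and 132, 104 and 129.5 CPM in LIP. The interval of its log2 fold change was -0.16 to 0.43. *Relb* (ENSMUSG00000002983, chromosome 7 from 19606217 to 19629438), the partner of p52, was the lowest member in CPM, at 59.4, 57.9 and 59.4 in Ctrl and 51.5, 45.1 and 59.7 in LIP. With TMM its log2 fold change was -0.18 ± 0.141 (SE, edgeR adjusted p = 0.310). LIP library 3 was as high as Ctrl, and the other LIP libraries were lower. *Relb* was called lower with library totals, at -0.50 (adjusted p = 0.0136, edgeR), in limma on log2(FPKM + 1), at -0.46 (adjusted p = 0.0149), and with the filter raised to FPKM 5, at -0.34 (adjusted p = 0.0484, edgeR). For these 4 subunits the data thus allow a change of up to about the size of the interval in either direction and do not show equal levels.

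**Figure D2:**
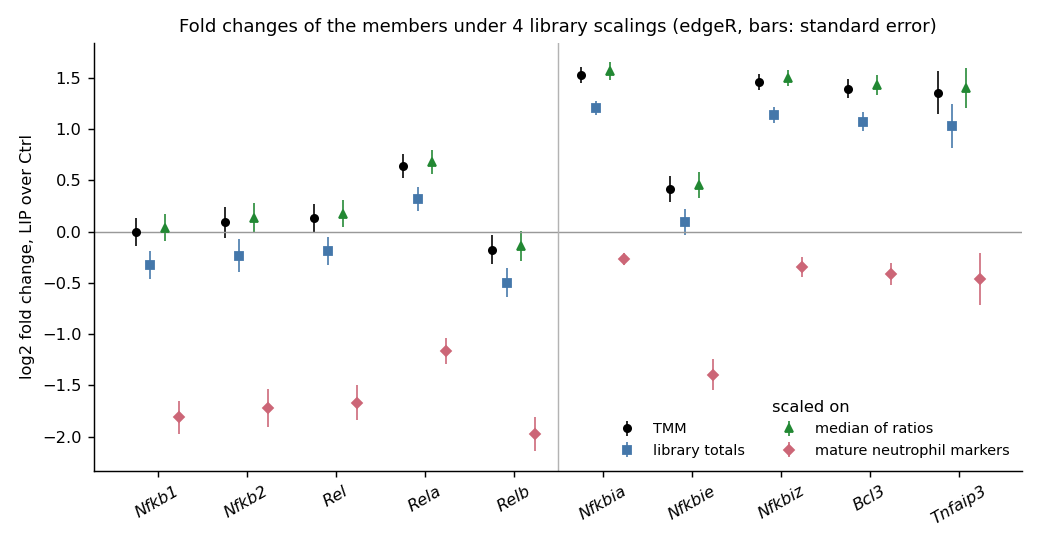
Log2 fold change (LIP over Ctrl, edgeR) of each member with its standard error when libraries were scaled by TMM, by library totals, by median of ratios or on 21 mature neutrophil markers. The 4 inhibitors *Nfkbia*, *Nfkbiz*, *Bcl3* and *Tnfaip3* lie between 1.03 and 1.57 under the first 3 scalings and between -0.46 and -0.27 under the last, where the subunits lie between -1.98 and -1.16.

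Per length the members kept nearly the same order in both groups. In Ctrl, mean FPKM fell from *Nfkbia* (2282) over *Nfkbiz* (258), *Tnfaip3* (126), *Bcl3* (66.1), *Rela* (49.5), *Nfkbie* (30.1), *Nfkb2* (27.3), *Relb* (15.6) and *Rel* (15.3) to *Nfkb1* (9.47). The libraries of neighbours overlapped for *Nfkbie* and *Nfkb2* and for *Relb* and *Rel*, and for no other neighbouring pair. In LIP the order was the same except that *Rel* (13.6) stood above *Relb* (11.2), and these overlapped. The means of the other members in LIP were 5331 for *Nfkbia*, 573 for *Nfkbiz*, 260 for *Tnfaip3*, 140 for *Bcl3*, 62.4 for *Rela*, 32.4 for *Nfkbie*, 23.4 for *Nfkb2* and 7.63 for *Nfkb1*.

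Ratios between members within a library do not depend on how libraries are scaled, but they can depend on the mix of cell types. The part of the marker shifts given above in these ratios, and in the shares below, was not tested. The geometric mean FPKM of the 5 inhibitors over that of the 5 subunits was 8.84, 8.81 and 8.13 in Ctrl libraries 1 to 3 and 19.3, 18.7 and 17.5 in LIP libraries 1 to 3. Transcripts of the 5 genes called inhibitors thus gained on those of the subunits in every LIP library. The gain was 1.11 on the log2 scale or 2.15-fold (2.40 ± 0.0684 against 3.51 ± 0.0748 as log2 CPM ratios, mean ± SD of 3 libraries). The two-sided exact permutation test gave p = 0.1, the smallest that 3 libraries against 3 allow, or 0.125 after Benjamini-Hochberg adjustment over the 5 ratios computed.

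The ratio of *Nfkbia* to *Rela*, the IκBα transcript to that of its main binding partner p65, was 43.4, 56.9 and 39.9 in Ctrl and 82.3, 86.3 and 87.9 in LIP (FPKM ratio). Ctrl library 2, with the highest *Nfkbia* and the lowest *Rela* of that group, had the highest Ctrl ratio. The difference was 0.89 on the log2 scale (exact permutation p = 0.1, adjusted 0.125). The ratio of *Nfkbie* to *Rel* was 2.02, 1.96 and 1.899 in Ctrl and 2.34, 2.76 and 2.12 in LIP, a smaller difference of 0.29 with no overlap (exact permutation p = 0.1, adjusted 0.125). That difference was 0.19 without LIP library 2 and 0.38 without LIP library 3. Transcripts of *Nfkb2* exceeded those of *Nfkb1* by 2.76-fold to 3.001-fold in Ctrl and by 2.89-fold to 3.33-fold in LIP, which overlapped (exact permutation p = 0.3, adjusted 0.3).

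The make-up of the subunits shifted toward *Rela*. As a share of the summed FPKM of the 5 subunits, *Rela* took 39.6%, 43.1% and 44.1% in Ctrl and 55.2%, 54.1% and 49.1% in LIP. The mean share was 42.3% ± 2.34 in Ctrl and 52.8% ± 3.28 in LIP (SD over 3 libraries, exact permutation p = 0.1, or 0.167 after adjustment over 5 shares). *Relb* fell outside the Ctrl range in every LIP library, at 13.4% ± 1.27 in Ctrl and 9.43% ± 1.26 in LIP, and *Nfkb1* went from 8.05% ± 0.404 to 6.46% ± 0.511, also without overlap (exact permutation p = 0.1 each, adjusted 0.167). *Nfkb2* and *Rel* overlapped between the groups, at 23.2% ± 2.13 against 19.8% ± 2.29 and 13.1% ± 0.698 against 11.5% ± 1.38 (exact permutation p = 0.2 each, adjusted 0.2). The ratio of *Rel* to *Rela* was 0.345, 0.309 and 0.280 in Ctrl and 0.224, 0.183 and 0.248 in LIP, a difference of -0.52 on the log2 scale (exact permutation p = 0.1, adjusted 0.125). Shares of a sum are tied to each other, so a larger *Rela* share lowers the rest.

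**Figure D3:**
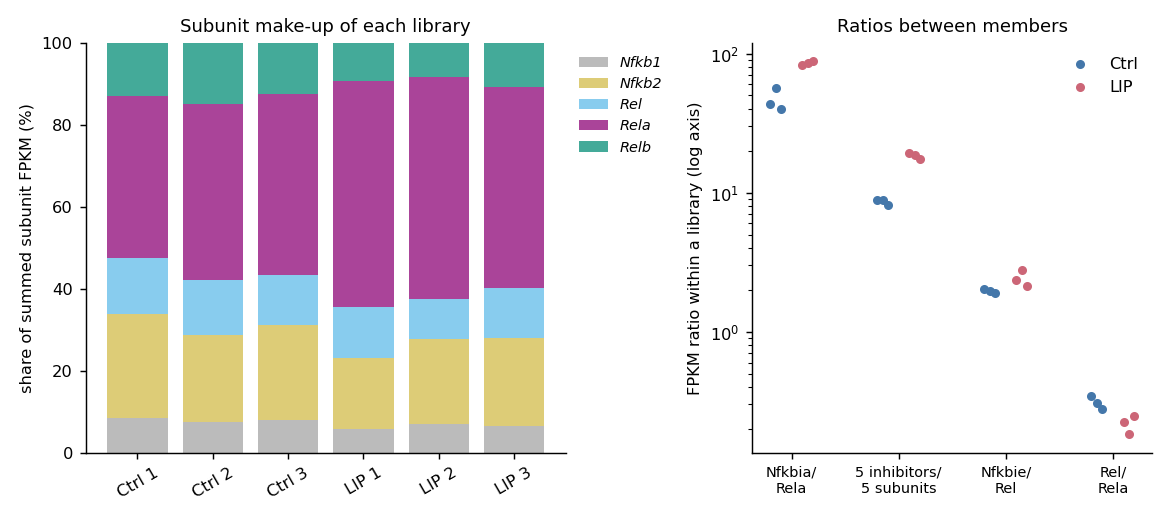
Left, share (%) of each subunit in the summed FPKM of the 5 subunits, per library. Right, FPKM ratios between members within each library (log axis, 1 point per library). *Rela* takes 49.1% to 55.2% of subunit FPKM in LIP against 39.6% to 44.1% in Ctrl. The geometric mean of the 5 inhibitors is 17.5 to 19.3 times that of the 5 subunits in LIP against 8.13 to 8.84 times in Ctrl.

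The rest of the pathway was read from 3 lists, chosen with earlier results of these data known. Their counts are therefore not independent of the data. Of 28 genes for the IκB kinases and the adaptors above them, 27 were tested, 8 were higher and 4 lower (29.6% and 14.8%, beside 26.5% and 27.2% of all genes), with a median of -0.22 with TMM. *Card9*, an adaptor of C-type lectin signalling in myeloid cells, rose from 12.0 ± 2.89 to 37.4 ± 10.3 CPM (mean ± SD of 3 libraries), by 1.64 on the log2 scale (edgeR, adjusted p = 0.000512). *Ripk1*, a kinase of the TNF receptor complex, rose from 54.7 ± 3.90 to 126 ± 14.6 CPM (log2 fold change 1.202), and both were below 0 when scaled on neutrophil markers, at -0.17 and -0.60.

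Those that fell in this list included *Traf5* (-1.74), an adaptor of TNF receptors, *Rbck1* (-0.34), a subunit of the linear ubiquitin ligase, and *Ikbke* (-1.47), an IκB kinase relative. *Rbck1* lost its call without Ctrl library 3, LIP library 1 or LIP library 3 (adjusted p = 0.0615, 0.0754 and 0.0938, edgeR), with no filter on low values (0.0901) and with filterByExpr (0.0568). The number of genes of this list called lower was 14 with library totals and 7 without Ctrl library 2. The subunits of the IκB kinase complex itself, *Chuk*, *Ikbkb* and *Ikbkg*, did not pass, with log2 fold changes of -0.37, -0.40 and -0.05. *Ikbke* and the genes of the kinase complex are named after their values were seen.

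Of 23 further negative regulators, 21 were tested, 15 were higher and 1 lower (71.4% and 4.76%), with a median log2 fold change of 0.76, and with scaling on neutrophil markers none was higher and 20 were lower. *Optn*, which encodes a ubiquitin-binding autophagy receptor, rose from 19.8 ± 2.51 to 58.1 ± 8.19 CPM, by 1.55 on the log2 scale (edgeR, adjusted p = 3.71e-05). *Rnf11*, a partner of A20 in ubiquitin editing, rose from 128 ± 18.5 to 350 ± 27.9 CPM, by 1.45. *Otulin*, which cleaves linear ubiquitin chains, was the gene that fell, from 62.9 ± 2.52 to 35.2 ± 4.60 CPM (-0.83, adjusted p = 0.000806, edgeR). The remaining IκB genes were in this list and are named after their values were seen. *Nfkbid*, which encodes the nuclear IκBNS, had 332, 314 and 313 CPM in Ctrl and 786, 685 and 662 CPM in LIP, a log2 fold change of 1.15 (adjusted p = 4.38e-06, edgeR). *Nfkbib*, for IκBβ, had 105, 126 and 114 CPM against 194, 207 and 182 CPM, a change of 0.76 (adjusted p = 0.000309, edgeR). Under TMM all 6 IκB genes named here, *Nfkbia*, *Nfkbib*, *Nfkbid*, *Nfkbie*, *Nfkbiz* and *Bcl3*, were thus higher in LIP, the weakest being *Nfkbie*.

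The 52 genes listed as NF-κB targets came from general knowledge, but with earlier results of these data known. Of them 47 were tested, 36 were higher and 4 lower (76.6% and 8.51%), with a median of 1.19. The neutrophil marker scaling left 2 higher and 26 lower. *Ier3*, an early response gene linked to cell survival, had 95.5, 111 and 84.9 CPM in Ctrl and 411, 454 and 420 CPM in LIP, a log2 fold change of 2.14 ± 0.122 (SE, edgeR adjusted p = 4.10e-07). *Lcn2*, the granule protein lipocalin-2 and also 1 of the 21 neutrophil markers, rose from 356 ± 40.3 to 1487 ± 85.4 CPM, by 2.06 on the log2 scale. The targets that fell were *Ccr7*, a homing receptor of lymphocytes and dendritic cells, *Myc*, *Cd40* and *Cd83*, the latter pair named after their values were seen and known as surface proteins of B cells and dendritic cells.

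*Ccr7* had 739, 890 and 707 CPM in Ctrl and 88.5, 107 and 120.0 CPM in LIP, a log2 fold change of -2.89 (adjusted p = 1.99e-07, edgeR). *Myc* fell from 230 ± 25.9 to 41.2 ± 4.17 CPM (-2.48), *Cd40* by 2.32 and *Cd83* by 2.16. These 4 changes lie near the medians of the B and T cell markers (-2.53 and -2.37), whose part in them was not tested. The medians of the targets (1.19) and of the inhibitors (1.39) lay below that of the mature neutrophil markers (1.84). The target list and the marker list share *Mmp9* and *Lcn2*. The part of the mature neutrophil markers in the rises was not tested either.

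**Figure D4:**
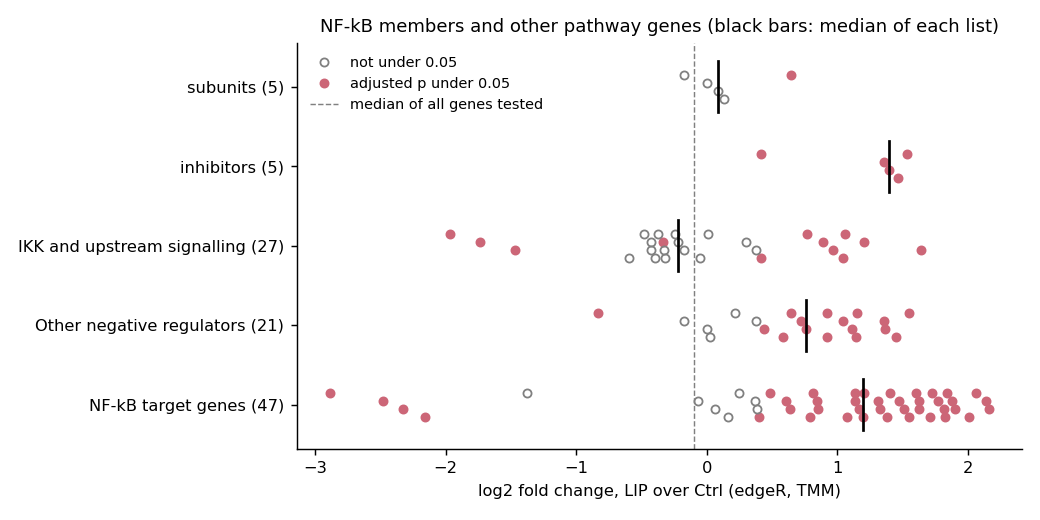
Log2 fold change (LIP over Ctrl, edgeR with TMM) of each tested gene in the 5 lists, with the number tested in parentheses, filled where the adjusted p was under 0.05. The list medians run from -0.22 for kinases and adaptors over 0.09 for subunits and 0.76 for other negative regulators to 1.19 for targets and 1.39 for inhibitors, beside -0.09 for all genes, and scaling on mature neutrophil markers turns most of the rises into falls.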

How the data were processed

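Per the labels and the study's methods, paired-end Smart-seq2 libraries were sequenced, trimmed with cutadapt 1.9, checked with FastQC and placed on GRCm38. The aligner, the counting tool and the use of strand are not given in the sources used here. As deposited, each gene has a raw count and an FPKM value, the count scaled by the authors to gene length and library total. For 50 symbols on several rows, the most abundant row by FPKM was kept.

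After a filter at FPKM 1 (mean of 6 libraries), the counts of 10433 genes were fitted together in edgeR 4.0.16 (R 4.3.3), by the quasi-likelihood test with TMM factors and Benjamini-Hochberg adjustment. A gene was called at an adjusted p under 0.05. Standard errors came from dividing a log2 fold change's size by the square root of its F value. Ratios used log2 CPM with a prior count of 2, and SciPy 1.17.1 gave the exact permutation tests. DESeq2 1.42.0, limma 3.58.1, other scalings and filters, and leaving out each library were the alternatives. The test was also tried on simulated counts in which few genes changed. That trial does not speak to data in which as many genes were called as here.

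The members and lists were chosen with earlier results of these data known. Genes named from a list are the 2 highest and the 2 lowest called genes whose FPKM averaged 5 or more and whose groups did not overlap. Total counts of 52186555 to 57262379 make counting error small beside the spread between libraries, and reads are not independent molecules. The chi-square per gene between libraries of 1 group was 39.1 to 77.0, far above sampling noise, so all 6 were kept as separate. No protein sequences were used here. A gene of the kinase and adaptor list is counted but not reported here by name.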

Additional observations from a re-analysis of the deposited data

How the results depend on the processing

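The counts of called members and list genes moved most with the scaling. With scaling on the mature neutrophil markers 9215 genes were called, 0 subunits, inhibitors, kinase and adaptor genes or other negative regulators were higher, and 5, 4, 26 and 20 of them were lower, while 2 targets were higher and 26 lower. Under it the log2 fold changes were -1.72 for *Nfkb2*, -1.67 for *Rel*, -1.16 for *Rela*, -0.27 for *Nfkbia*, -1.39 for *Nfkbie*, -0.35 for *Nfkbiz*, -0.41 for *Bcl3*, -0.46 for *Tnfaip3*, -0.17 for *Card9*, -0.60 for *Ripk1*, -0.26 for *Optn* and -0.35 for *Rnf11*. The markers themselves rose by a median of 1.84 with TMM, so this scaling lowers each gene by about that amount. With library totals 1 subunit and 14 kinase and adaptor genes were lower, and *Nfkb2* and *Rel* stood at -0.23 and -0.19. In limma on log2(FPKM + 1) and on log2(FPKM + 0.1), where 32.1% and 32.3% of calls were higher, 1 subunit and 11 kinase and adaptor genes were lower, with *Nfkb2* at -0.20 and -0.21 and *Rel* at -0.17 and -0.18. At a mean FPKM of at least 5, where fewer genes were tested, 3636 genes were called, 1 subunit was lower, and *Nfkb2* and *Rel* stood at -0.080 and -0.032. With filterByExpr 2 other negative regulators were lower. Beyond the shift of scale, the cause was not tested.

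*Nfkb1*, at 0.00, changed sign without passing the test, to 0.038 with median-of-ratios factors and DESeq2, 0.039 with filterByExpr and 0.031 without a filter. Without each library in turn it ran from -0.098 to 0.072, *Nfkb2* from -0.030 to 0.20, and the number of kinase and adaptor genes called lower from 3 to 7. In these fits the inhibitor to subunit ratio stayed between 1.07 and 1.15 and the *Nfkbia* to *Rela* ratio between 0.78 and 1.04 on the log2 scale. Leaving haemoglobin and immunoglobulin genes out changed no call of a member.

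Same-numbered libraries of the groups come from different mice, and their deviations from the group means correlated by -0.0074, 0.046 and 0.021. Libraries with different numbers correlated by -0.047 to 0.029. With 3 libraries per group this cannot show whether a number marks a shared batch, and the main fit used no pairing. With the number as a block, *Nfkb1* stood at 0.0059, 5546 genes were called, and no member gained or lost its call. Not every library correlated best with its own number.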

Other observations

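The deposited table annotates 91 genes to the KEGG pathway for NF-κB signalling. This set was looked at after the data had been seen. Of these genes 76 were tested, 35 were higher and 15 lower in LIP with TMM scaling, beside 26.5% and 27.2% of all genes. Their median was 0.33 on the log2 scale. Of the 36 that are neither members nor in the lists above, 15 were higher and 12 lower, with a median of 0.07. Those that rose most were *Tlr4*, the receptor for lipopolysaccharide (13.8 to 82.6 CPM, log2 fold change 2.58, adjusted p = 4.43e-06, edgeR), and *Tirap*, an adaptor of that receptor (22.5 to 81.8 CPM, 1.86). *Tnfrsf1a*, the main receptor for TNF, rose by 1.62. Those that fell most were *Cd40lg*, a ligand made by T cells (-3.21), *Tnfrsf13c*, the receptor for BAFF on B cells (103 to 15.5 CPM, -2.74), and *Lta* (-2.55). *Cd40lg* (5.17 to 0.555 CPM) and *Lta* (6.26 to 1.07 CPM) were low in both groups. *Cd40lg* had 0 reads in LIP library 3, and its 95% interval ran from -5.25 to -1.17. *Lck*, a kinase of T cell receptor signalling, fell by 1.32. The part of B and T cell RNA in these values was not tested.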
